A study of Mus musculus with 9 samples.

Results

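Of 9 RNA libraries of endothelial cells sorted from mouse lung, 3 held Fos below 700 CPM, that is, counts scaled to a common library total, and these are described here against the 6 others. They are replicate 2 of WT (320 CPM), replicate 2 of DNMAML (348 CPM) and replicate 1 of Notch1f/f (516 CPM), a single library of each genotype. The other libraries held 1946 and 1201 CPM in WT, 1536 and 1306 CPM in DNMAML and 1353 and 1225 CPM in Notch1f/f. Notch1f/f replicate 1 was thus the library closest to the threshold from below, and WT replicate 3 at 1201 CPM the closest from above. Since a readout of these same libraries chose the 3 low-Fos libraries, differences between them and the others are a description and carry no test.

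All mice were C57BL/6 and 6 weeks old, and cells negative for DAPI and CD45 and positive for CD31 were sorted, per the labels. DNMAML usually names a dominant-negative Mastermind-like protein that blocks transcription by Notch receptors, and Notch1f/f usually denotes Notch1 flanked by recombination sites. Neither the Cre driver nor the number of mice behind the libraries is stated in the labels read here. Total counts ran from 15522100 to 21430631 in the low-Fos libraries and from 18226695 to 27842496 in the others. From here on, CPM is relative to the library size scaled by TMM. Notch1 itself was at 766, 909 and 811 CPM in WT, 679, 872 and 777 in DNMAML, with 70.8, 29.5 and 176 in Notch1f/f, so the libraries labelled Notch1f/f lay below all others. The endothelial marker Cdh5 was at 5366 to 6656 CPM in every library, and Ptprc, which encodes CD45, at 0.41 to 27.95 CPM. 

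In each genotype the low-Fos library was of the opposite sex to both others. The Y-linked gene Ddx3y was at 107 CPM in the low-Fos library of WT and 133 in that of Notch1f/f, and at most 0.23 in the others of these genotypes. In DNMAML it was at 0 in the low-Fos library and at 107 and 115 CPM in the others. Xist, the RNA of the inactive X chromosome, had the reverse pattern, with 0, 21165 and 93 counts in the low-Fos libraries of WT, DNMAML and Notch1f/f. The contrast was thus male against female in WT and Notch1f/f and female against male in DNMAML, and genes counted below had to differ the same way in all 3. The genotypes also differed in sex, with 2 of 3 libraries male in DNMAML and 1 of 3 in WT and in Notch1f/f.

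Fos encodes a subunit of the transcription factor AP-1, which forms from pairs of Fos, Jun, Atf and Maf family proteins. Fos belongs to the immediate early genes, which a cell transcribes within minutes of a stimulus, without first making new protein, when MAP kinases act on factors such as SRF, its Elk partners and CREB. Many of their products are transcription factors, and others are phosphatases and RNA-binding proteins that end the response. In endothelium, shear stress, growth factors and inflammatory cytokines are known stimuli of these genes.

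Some of the DNA sites that control such genes lie close to their start, and the 250 bases before the annotated start of 4 early genes are shown. Sites further from the start are outside this window. Sequences are those of RefSeq on build GRCm38.p6, 5′ to 3′ on the strand of the gene. Capitals mark TGACG, the core of the cAMP response element bound by CREB and ATF proteins, or its reverse complement CGTCA. Fos lies on the plus strand (chr12:85473640-85473889), and Fosb (chr7:19310046-19310295), Atf3 (chr1:191183334-191183583) and Dusp1 (chr17:26508473-26508722) on the minus strand.
Fos: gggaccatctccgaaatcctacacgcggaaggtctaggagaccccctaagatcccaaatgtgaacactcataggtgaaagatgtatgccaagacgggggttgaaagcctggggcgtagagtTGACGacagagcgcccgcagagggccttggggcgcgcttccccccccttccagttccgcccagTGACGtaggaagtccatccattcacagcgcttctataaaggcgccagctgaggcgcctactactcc
Fosb: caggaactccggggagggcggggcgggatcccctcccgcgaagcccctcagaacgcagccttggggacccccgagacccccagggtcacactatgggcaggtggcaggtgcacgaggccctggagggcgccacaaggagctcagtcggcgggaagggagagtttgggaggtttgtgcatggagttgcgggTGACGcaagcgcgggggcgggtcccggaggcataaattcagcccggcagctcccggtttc
Atf3: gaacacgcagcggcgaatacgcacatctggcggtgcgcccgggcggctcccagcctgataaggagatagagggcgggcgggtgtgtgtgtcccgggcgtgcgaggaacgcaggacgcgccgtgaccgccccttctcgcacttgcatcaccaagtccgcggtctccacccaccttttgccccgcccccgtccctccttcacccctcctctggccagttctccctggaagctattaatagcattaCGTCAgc
Dusp1: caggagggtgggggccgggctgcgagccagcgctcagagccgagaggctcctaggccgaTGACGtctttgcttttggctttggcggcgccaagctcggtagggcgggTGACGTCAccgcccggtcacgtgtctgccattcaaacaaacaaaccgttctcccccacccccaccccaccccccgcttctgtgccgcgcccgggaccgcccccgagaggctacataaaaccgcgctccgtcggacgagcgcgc

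Dusp1 holds the full element TGACGTCA as well as a further TGACG. Of the early response genes described below, 62 of the 82 measured had a promoter entry, and 32 of these (51.6%) held TGACG on either strand within the 250 bases. The share was 28.5% among all measured genes with an entry and 19.8% among all 27025 entries. Among early genes that were lower in the low-Fos libraries it was 14 of 24 (58.3%), and among all lower genes 24.1%. The heat shock list held as large a share, 7 of 13 (53.8%), at a like median GC content (63.6%). The full element TGACGTCA, which contains TGACG, stood in 12.9% of the early promoters and in 2.88% of those of all measured genes. The median GC content was 63.8% in the early promoters and 59.2% in those of measured genes. A match describes the letters in this window and is not a measured binding site.

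On the TMM scale Fos was at 319, 345 and 495 CPM in the low-Fos libraries of WT, DNMAML and Notch1f/f. For each gene and genotype, the log2 CPM of the low-Fos library minus the mean of both other libraries was taken, and values are the mean ± SD over the 3 genotypes. A gene was counted as lower or higher when the low-Fos library lay beyond both others in all 3 genotypes and the mean difference was at least 1 on the log2 scale. Of 19486 genes with enough counts, 666 (3.42%) were counted as lower and 1073 (5.51%) as higher. The median difference over all of them was 0.01. Without Notch1f/f replicate 1 or 2 the lower count was 1306 or 1054, and without WT or DNMAML replicate 2 the higher count was 1654 or 1611. Leaving out a library leaves fewer conditions to meet.

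Early response genes, of transcription factors, feedback inhibitors and effectors, were lower in the low-Fos libraries as a group. In the 4 lists that make up the group, 33 of 82 measured genes (40.2%) were lower and 0 were higher, against 3.42% lower over all genes. The group's median difference was -0.90, and 57 of its genes lay below both other libraries in each genotype, as did 10.4% of all genes. With Fos set aside, 32 of 81 were lower and the median was -0.89. Over the omission of each library in turn, the count of lower genes ran from 29 to 36. The split was chosen on Fos, so these counts describe genes that varied with Fos between libraries and are no independent evidence of it. Markers of lung epithelium were also lower in the same 3 libraries (the alveolar list summed to 225 to 538 CPM against 609 to 3833), and the part of such cells in the early genes was not tested.

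**Figure D1:**
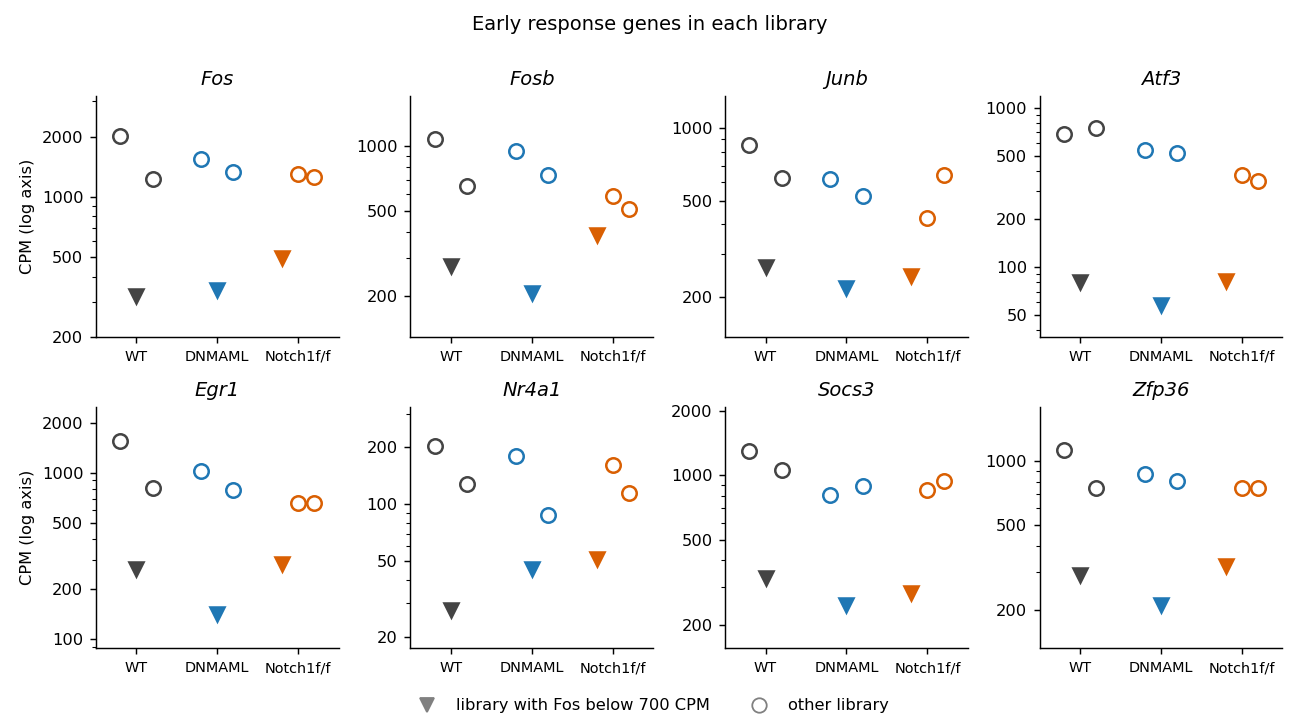
CPM of 8 early response genes in each library, on log axes, by genotype. Filled triangles are the 3 libraries with Fos below 700 CPM and open circles the 6 others. For each of the 8 genes the triangles lie below all circles. The 8 are Fos, which chose the libraries, and others picked from the 33 of 82 early genes counted as lower. Early genes not shown include some whose values overlap.

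Among the AP-1 subunits, 14 of 15 listed genes were measured (Fosl1 was not) and 6 were lower: Fos, Fosb, Junb, Jund, Atf3 and Maff. Atf3, a stress-induced member of the ATF family (chromosome 1, 190902493 to 190950236, GRCm39), differed most. It was at 80.0 CPM in the low-Fos library of WT against 680 and 746 CPM, at 58.0 in that of DNMAML against 546 and 520, and at 81.8 in that of Notch1f/f against 381 and 347. The 3 low values did not overlap the others, and the difference was -2.83 ± 0.59 (SD, n = 3 genotypes).

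Fosb (chromosome 7, 19036621 to 19043976, GRCm39), a paralogue of Fos, was at 278, 206 and 387 CPM in the low-Fos libraries of WT, DNMAML and Notch1f/f. The others held 1079 and 656 CPM in WT, 949 and 732 in DNMAML, with 588 and 509 in Notch1f/f. The gap was narrowest in Notch1f/f, where the difference was -0.50 against -1.60 in WT and -2.02 in DNMAML. Fos itself likewise differed least in Notch1f/f, with -2.30 in WT, -2.05 in DNMAML and -1.37 in Notch1f/f. Junb, a Jun family partner, was at 265, 218 and 244 CPM against 423 to 854 in the others (-1.31 ± 0.19). Jund, the Jun gene with the steadiest expression in most tissues, was at 30.8 to 47.1 CPM against 68.1 to 115 (-1.10 ± 0.27).

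Jun, the most abundant AP-1 gene here, was at 1778, 1234 and 1414 CPM in the low-Fos libraries and at 1844 to 3296 in the others. The groups did not overlap, but the difference of -0.80 ± 0.25 was below the size needed to count. Not every subunit was lower. The small Maf gene Mafg was at 44.8 to 51.9 CPM in the low-Fos libraries and 34.7 to 61.4 in the others, a difference of 0.01 ± 0.08. Jdp2, whose product represses AP-1 sites, differed by -0.37 ± 0.21 and Fosl2 by -0.82 ± 0.49, with overlapping values. Batf and Batf3, which act in lymphoid and myeloid cells, were below 1 CPM in each library.

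Of 21 other immediate early transcription factors, 19 were measured and 7 were lower, with a median of -1.08. Egr1, the zinc finger factor often induced together with Fos, was at 263, 141 and 284 CPM in the low-Fos libraries of WT, DNMAML and Notch1f/f. Its other values were 1561 and 813 CPM in WT, 1020 and 788 in DNMAML, with 657 and 658 in Notch1f/f, so the groups lay apart (-1.995 ± 0.74). The related Egr2 (0.81 to 2.00 against 3.57 to 12.2 CPM) and Egr3 (4.59 to 8.32 against 14.5 to 29.8 CPM) were also lower, by -2.36 ± 0.41 and -1.88 ± 0.54. Nr4a1, an orphan nuclear receptor, stood at 27.8 to 51.2 CPM against 87.3 to 204 (-1.80 ± 0.64). Csrnp1, Ier2 and Ier5l complete the 7.

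Klf2 and Klf4, the Krüppel-like factors that laminar shear stress maintains in endothelium, had smaller differences. Klf4 was at 314 to 432 CPM in the low-Fos libraries and 583 to 631 in the others (-0.71 ± 0.21), and Klf2 at 220 to 345 against 430 to 488 (-0.67 ± 0.29). Both lay below every other library without reaching the size to count. Klf10, a target of TGF-beta, was the only measured member with a mean above 0 (0.11 ± 0.41). Myc was at 2.18 to 9.49 against 7.28 to 53.5 CPM, with an SD of 1.54 around its difference of -1.57.

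The feedback genes, which shut the early response down, were measured for 27 of 27 and lower for 9, with a median of -0.75. Socs3 (chromosome 11, 117856905 to 117860873, GRCm39), an inhibitor of JAK-STAT signalling, was at 331, 248 and 283 CPM in the low-Fos libraries of WT, DNMAML and Notch1f/f against 804 to 1303 in the others. Its difference was almost the same in the 3 genotypes (-1.75 ± 0.09). Zfp36, which destabilises cytokine and early gene mRNAs, stood at 290.6, 210.5 and 322 CPM against 746 to 1128 (-1.62 ± 0.39). Dusp1, the phosphatase that inactivates MAP kinases, was at 274.5, 229 and 354 CPM against 443 to 763 (-1.01 ± 0.53). Ier3, Nfkbiz, Btg2, Trib1, Errfi1 and Dusp2 were the other lower genes.

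Other negative regulators differed less. Dusp6, a phosphatase for ERK, was at 137 to 225 CPM in the low-Fos libraries and 225 to 284 in the others, which just overlapped (-0.57 ± 0.24). Nfkbia, the inhibitor that NF-kB itself induces, was at 192 to 328 against 244 to 341 CPM with overlapping values (-0.25 ± 0.26). Zfp36l1 and Zfp36l2, paralogues of Zfp36, differed by -0.12 ± 0.20 and -0.17 ± 0.13. The members of a family thus differed by unequal amounts between the same libraries.

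Effector genes, whose products act outside the nucleus or on the cell cycle, were lower for 11 of 22 measured, with a median of -0.98. Ccn1, a matrix protein and target of SRF and YAP, was at 52.4, 80.0 and 62.6 CPM in the low-Fos libraries and at 129 to 286.5 in the others (-1.60 ± 0.37). Ppp1r15a, which reverses the phosphorylation of eIF2alpha, was at 218.5, 146 and 168 CPM against 353 to 564 (-1.31 ± 0.08). Ptgs2, the inducible prostaglandin synthase, stood at 6.54 to 12.3 against 19.3 to 24.4 CPM (-1.17 ± 0.47). Gadd45g, Gadd45a, Gem, Ccn2, Plk2, Arc and F3 were also lower.

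Edn1, which encodes endothelin, was the exception among effectors, with a mean above 0 (0.52 ± 0.48). It was at 178, 77.7 and 116 CPM in the low-Fos libraries of WT, DNMAML and Notch1f/f and 53.1 to 140 in the others, so the groups overlapped. Thbs1 also overlapped, at 139 to 379 against 173 to 919 CPM (-0.74 ± 1.00).

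Genes of the upstream machinery differed less. Of 21 measured genes of the MAP kinase, SRF and CREB list 0 were counted as lower or higher, 14 had a mean below 0, and their median was -0.07. The kinase gene Mapk3 was at 407 to 451 CPM in the low-Fos libraries and 433 to 570 in the others (-0.20 ± 0.07). The Ets factor gene Elk3 was at 446 to 509 against 366 to 522 CPM (0.15 ± 0.17). Srf, which is itself an early gene and also in that list, had the lowest mean of this list, at 43.4 to 50.4 against 73.5 to 90.6 CPM (-0.79 ± 0.14). These are mRNA levels, and the activity of the kinases was not measured.

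**Figure D2:**
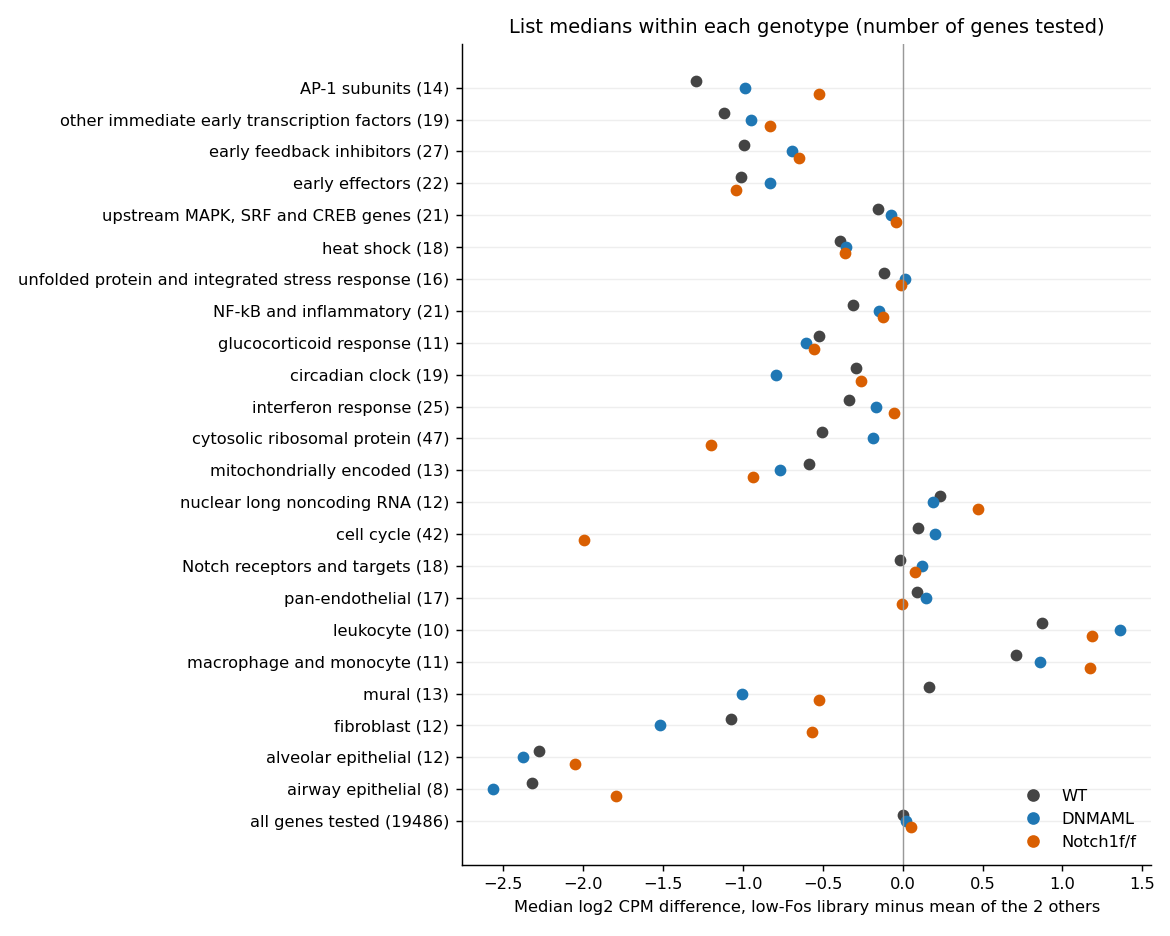
Median log2 CPM difference of the genes of each list, low-Fos library minus the mean of the other 2 libraries, in WT, DNMAML and Notch1f/f (points); the number of genes measured is in brackets. The 4 early response lists have medians between -1.29 and -0.52, the epithelial lists between -2.56 and -1.79, and all genes between 0.00 and 0.05.

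Other stress programmes differed in part. Of 18 heat shock genes 3 were lower, Hspa1a, Hspa1b and Dnajb1, with a list median of -0.41. Hspa1a, an inducible chaperone gene, was at 18.5, 11.3 and 13.8 CPM in the low-Fos libraries of WT, DNMAML and Notch1f/f. The others ran from 35.65 to 174 CPM, the highest being WT replicate 3, and the difference was -2.05 ± 0.26. Hspa1a and Hspa1b are near-identical copies, so reads could be split between them. The constitutive chaperone gene Hspa8 was at 694 to 751 against 777 to 1186 CPM (-0.48 ± 0.23), and Hsf1, the factor that drives heat shock genes, was slightly higher (0.35 ± 0.04). Of 16 genes of the unfolded protein and integrated stress response 0 were lower or higher, with a median of 0.06.

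Inflammatory genes were lower for 6 of 21 measured, with a median of -0.25. These were the secreted factors Il6, Cxcl1 and Cxcl10 and the leukocyte adhesion molecules Sele, Selp and Vcam1. Vcam1 was at 29.6, 24.0 and 18.7 CPM in the low-Fos libraries of WT, DNMAML and Notch1f/f against 43.0 to 66.8 in the others (-1.28 ± 0.41). Selp, which encodes P-selectin, was at 5.39 to 6.98 against 12.3 to 81.6 CPM (-1.86 ± 0.62), the highest value being that of Notch1f/f replicate 2. The NF-kB subunit gene Nfkb1 did not share this, at 178 to 215 against 181 to 208 CPM (0.06 ± 0.19). Icam1 differed by -0.57 ± 0.55 and was level in WT (0.02).

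Clock genes differed in both directions, with 15 of 19 means below 0 and a median of -0.50. Bhlhe40 (20.1 to 30.7 against 69.6 to 195 CPM, -1.87 ± 0.50) and Per2 (-1.32 ± 0.18) were the 2 that were lower. Per2 is also known to respond acutely to stimuli. Arntl, the partner of Clock, differed by 0.61 ± 0.14 and Ciart by 0.78 ± 0.04, each below the size to count. Of 11 glucocorticoid response genes 10 had means below 0 and 3 were lower (Mt1, Pdk4 and Zbtb16), while Sgk1 was at 338 to 806 against 412 to 630 CPM (0.07 ± 0.53). The interferon response list had 0 of 25 lower or higher and a median of -0.18.

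By abundance, the lower and the higher genes were of different kinds. At a mean of at least 100 CPM, 35 of 2238 genes were lower and a single gene was higher. Of the 35, 18 belonged to the early response lists, which had 37 genes at that level, 6 to the epithelial lists and 3 to the fibroblast list. All 18 early genes, and 26 of the 35, had every low-Fos library below every other library. Over the whole set 932 genes (4.78%) showed this order. The rule that counts a gene as lower makes the order likely, so these shares are not a like comparison. Fos, which chose the libraries, is among the 18. The 8 of the 35 in none of these lists were Scd1, Cbr2, Sec14l3, Mgp, Lyz2, Bgn, Arid5a and Odc1. Between 1 and 10 CPM, 375 of 6321 genes were lower and 609 higher.

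**Figure D3:**
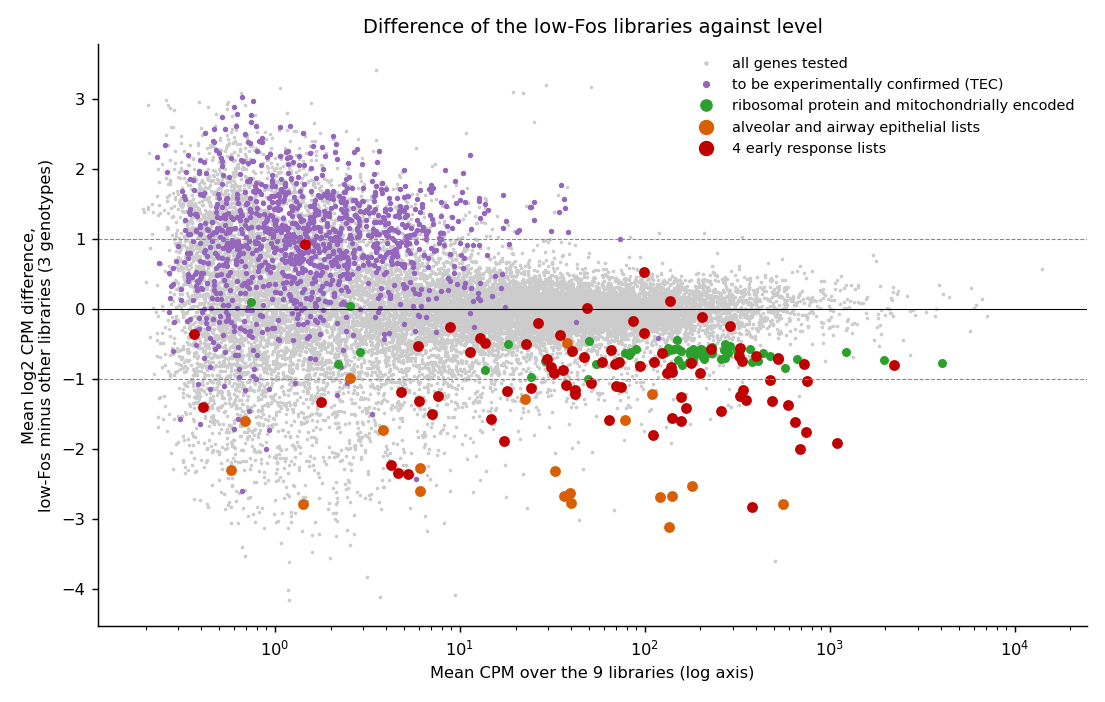
Mean log2 CPM difference between low-Fos and other libraries (vertical axis) against mean CPM (horizontal log axis) for 19486 genes, with dashed lines at the size needed to count. Of 82 early response genes 78 lie below 0, as do all 20 epithelial genes. Genes of the annotation class TEC lie mostly above 0 at low levels, with a median of 0.96.

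Genes of lung epithelium were lower in the low-Fos libraries by more than the early genes. Of 12 measured alveolar genes 11 were lower, and of 8 airway genes 4, with medians of -2.42 and -2.45. Sftpc (chromosome 14, 70758389 to 70761521, GRCm39), which encodes surfactant protein C of type 2 cells, was at 169, 67.5 and 65.9 CPM in the low-Fos libraries of WT, DNMAML and Notch1f/f. The others held 702.5 and 1876 CPM in WT, 580 and 829 in DNMAML, with 177 and 552 in Notch1f/f. The lowest of these, Notch1f/f replicate 2, lay just above the low-Fos library of WT, and the difference was -2.79 ± 0.56. Ager, a gene of type 1 cells, was at 22.6 to 51.0 against 63.5 to 126 CPM (-1.58 ± 0.43). Scgb1a1, the secretoglobin of club cells, stood at 4.47 to 47.0 against 110 to 353 CPM (-3.12 ± 1.44).

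In summed level, the 12 alveolar genes reached 538, 293 and 225 CPM in the low-Fos libraries of WT, DNMAML and Notch1f/f. They reached 1771 and 3833 CPM in the others of WT, 1717 and 2008 in DNMAML, with 608.5 and 1278 in Notch1f/f, with no overlap. The 8 airway genes summed to 50.9, 64.5 and 10.9 CPM against 138.5 to 480. Hopx was the alveolar gene not counted (-0.48 ± 0.75). The sort selected CD31-positive cells. In sorted bulk RNA, fewer carried-over cells and less RNA per such cell cannot be told apart.

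Other cell types did not move as one. Of 12 fibroblast genes 5 were lower, with a median of -1.17, but their sums overlapped, at 276 to 678 CPM against 297 to 2687. Of 13 mural genes 0 were counted, and the list median was 0.17 in WT and -1.005 in DNMAML. Leukocyte genes went the other way in the median (1.20 over 10 genes), with 0 counted either way and sums of 116 to 320 against 109 to 343 CPM. The C1qa, C1qb and Marco genes of macrophages did not pass the filter on low counts. Of 11 measured macrophage and monocyte genes Chil3, Fcgr3 and Ccr2 were higher and Lyz2, which alveolar type 2 cells also express, was lower. Platelet genes summed to 86.7 to 396 CPM in the low-Fos libraries and 42.3 to 1122 in the others.

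**Figure D4:**
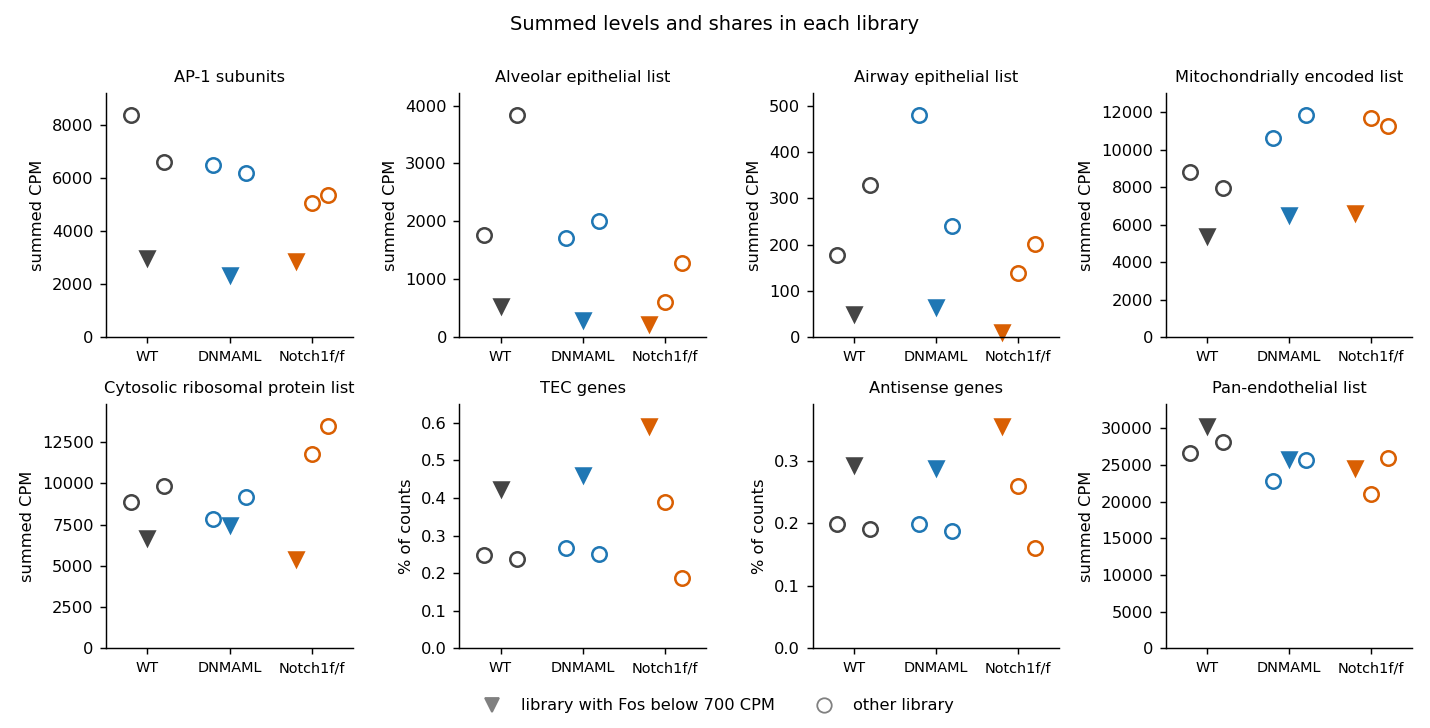
Summed CPM of 6 gene lists and the percent of counts in the annotation classes TEC and antisense, for each library by genotype, with linear axes from 0. Filled triangles (low-Fos libraries) lie below all open circles for the AP-1, alveolar, airway, mitochondrial and ribosomal protein panels. They lie above all circles for TEC and antisense genes. For the pan-endothelial list the groups overlap (24630 to 30260 against 21110 to 28110 CPM), with the WT triangle above every circle.

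The endothelial identity genes differed little. Of 17 pan-endothelial genes 0 were lower or higher, with a median of 0.06. Cdh5, which encodes VE-cadherin, was at 6656, 6310 and 5971 CPM in the low-Fos libraries of WT, DNMAML and Notch1f/f and 5366 to 6625 in the others (0.06 ± 0.04). Pecam1, the CD31 gene, was at 3430 to 3982 against 3408 to 4353 CPM (0.00 ± 0.18). Of the 18 measured Notch receptor and target genes 0 were counted, with a median of 0.09, and Notch4 differed by 0.46 ± 0.18. The 13 arterial and 11 general capillary genes likewise gave 0 either way, while 2 of 10 venous genes, Vcam1 and Selp, were lower.

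Cell cycle genes differed between low-Fos and other libraries by unequal amounts in the 3 genotypes. By the rule 3 of its 42 genes were lower, and its genes had a median difference of 0.09 in WT and 0.20 in DNMAML but -1.99 in Notch1f/f. Mki67, a marker of cycling cells, was at 29.1 CPM in the low-Fos library of Notch1f/f against 138 and 184 in its others. In DNMAML the low-Fos library held 146 CPM of Mki67 against 122 and 103, and in WT 7.18 against 5.51 and 5.96. Whether the genotypes differ in this was not tested, since each has a single low-Fos library.

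RNAs of mitochondria and of ribosomal protein genes also differed. The 13 mitochondrially encoded genes all had means below 0 (median -0.75), 11 lay below both other libraries in each genotype, and only mt-Nd6 reached the size to count. That count was 0 without DNMAML replicate 2 or 3 or Notch1f/f replicate 2, and 2 without WT replicate 2, DNMAML replicate 1 or Notch1f/f replicate 1 or 3. mt-Co1, a subunit of cytochrome c oxidase, was at 2138, 3016 and 3064 CPM in the low-Fos libraries of WT, DNMAML and Notch1f/f. Its values in the others were 3592 and 3845 CPM in WT, 4971 and 5602 in DNMAML, with 5410 and 4635 in Notch1f/f, a difference of -0.77 ± 0.05. The 47 cytosolic ribosomal protein genes gave 0 counted as lower but a median of -0.62, and 29 lay below both others in each genotype. Their median was -0.50 in WT, -0.19 in DNMAML and -1.20 in Notch1f/f. It was -0.34 without Notch1f/f replicate 1, and without DNMAML replicate 2 there were 3 lower genes.

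Non-coding genes made up most of the higher genes. Protein-coding genes were 87.2% of the lower genes, whereas 79.1% of the higher genes were matched to a non-coding class, pseudogenes included. Of all 19486 measured genes, 14061 were protein-coding and 4892 matched a non-coding class. Among protein-coding genes 4.13% were lower, near the 3.42% of all genes. Among the non-coding ones 17.4% were higher, against 5.51% of all genes. The class TEC, single-exon transcribed regions whose status is still to be established by experiment, had 347 of 1131 genes higher (30.7%, against 5.51% of all genes) and 8 lower. Sense-intronic genes, which lie inside introns of other genes, were higher for 59 of 163, and antisense genes for 175 of 903. At 1 to 10 CPM, where the classes can be compared at like levels, 235 of 668 TEC genes but 84 of 3739 protein-coding genes were higher. Counting used no strand setting, per the file headers, so reads of an antisense or intronic gene cannot be told apart from those of the gene it overlaps.

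As a share of all counts, TEC genes took 0.424%, 0.460% and 0.591% in the low-Fos libraries of WT, DNMAML and Notch1f/f. The others had 0.250% and 0.238% in WT, 0.268% and 0.251% in DNMAML, with 0.389% and 0.188% in Notch1f/f. The shares did not overlap, and those of lincRNA genes (1.98% to 2.42% against 1.055% to 1.72%) and antisense genes (0.288% to 0.355% against 0.160% to 0.259%) did not either. Protein-coding genes took 94.7% to 95.2% against 95.6% to 96.6%. The part of RNA class in the early gene differences was not tested.

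Kcnq1ot1 (chromosome 7, 142757195 to 142850286, GRCm39), a nuclear RNA antisense to Kcnq1 that silences imprinted neighbours, was the only higher gene at 100 CPM or more. It was at 144.5, 188 and 214 CPM in the low-Fos libraries of WT, DNMAML and Notch1f/f. The others held 74.1 and 79.0 CPM in WT, 92.9 and 84.5 in DNMAML, with 135 and 59.6 in Notch1f/f (1.08 ± 0.17). Malat1, a long RNA of nuclear speckles and the most abundant gene of its list, was above both others in each genotype, at 18510, 15500 and 19650 against 7744 to 13980 CPM (0.57 ± 0.41). The snoRNA host Snhg1 went the other way (-0.74 ± 0.06). Of 12 genes for RNA processing and nuclear speckle proteins 0 were counted, with a median of 0.10.

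The genes with the largest differences were scarce. Among the 15 lowest with a mean of at least 1 CPM were the epithelial genes Cldn4, Elf3, Dmkn and Sfta2, the cilium genes Dnaaf1 and Dnah7c, and the cytokine Il6. Il6 was at 0, 0.50 and 0.36 CPM in the low-Fos libraries of WT, DNMAML and Notch1f/f and 1.43 to 6.66 in the others (-3.24 ± 1.07). Meig1 had 0 counts in all 3 low-Fos libraries and a mean of 1.78 CPM in the others, which is at least 11.2-fold lower against a floor of 3 counts per library. Among the 15 highest were genes of myeloid and lymphoid cells, Clec7a, Chil3, Jchain, Clec4e, Fcgr3, Ccr2, Arhgap30 and Foxp3. The rest were Slc5a10, Tmem253, Alkbh3os1, Prtg, Nat14, Ahrr and Prss48. In the lymphoid list 5 of 14 genes were measured and 0 were higher. Its medians were -1.16 in WT, 0.71 in DNMAML and 0.22 in Notch1f/f. Foxp3 had 36 counts in the low-Fos library of Notch1f/f against 34 and 4 in its others. Chil3, which alveolar macrophages express, was at 5.90, 166 and 34.1 CPM against 0.10 to 32.7, with the highest value in DNMAML replicate 2 (3.20 ± 1.34). The groups overlapped for Chil3, because DNMAML replicate 1 and Notch1f/f replicate 2 lay above the low-Fos library of WT.

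Across 15690 genes, the low-Fos libraries deviated from their genotype means together. Pearson correlations of these deviations were 0.327 to 0.435 for the 3 pairs of low-Fos libraries of different genotypes. Pairs of a low-Fos and another library gave -0.446 to 0.134, and pairs of other libraries -0.162 to 0.351. These are descriptions across genes, which are not independent, and the deviations within a genotype sum to 0. A fit with genotype and a low-Fos term in edgeR placed 442 genes lower (2.27%) and 312 higher (1.6%) at a Benjamini-Hochberg adjusted p under 0.05. The rule of order and size shared 243 of the lower and 149 of the higher genes with it. Nothing is read from these calls, since the term was chosen on the same libraries.

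The genotype labels played no part in choosing the libraries, so genotype comparisons could be tested with the low-Fos libraries accounted for. Each genotype has 1 low-Fos library, which balances the term over the genotypes. The term was read from the data, however, and the p-values do not allow for that choice. They measure the spread between these libraries, which may be technical in part. Libraries of both sexes stood in each genotype, so each genotype came from more than 1 mouse. Whether every library came from a separate mouse is not stated.

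**Figure D5:**
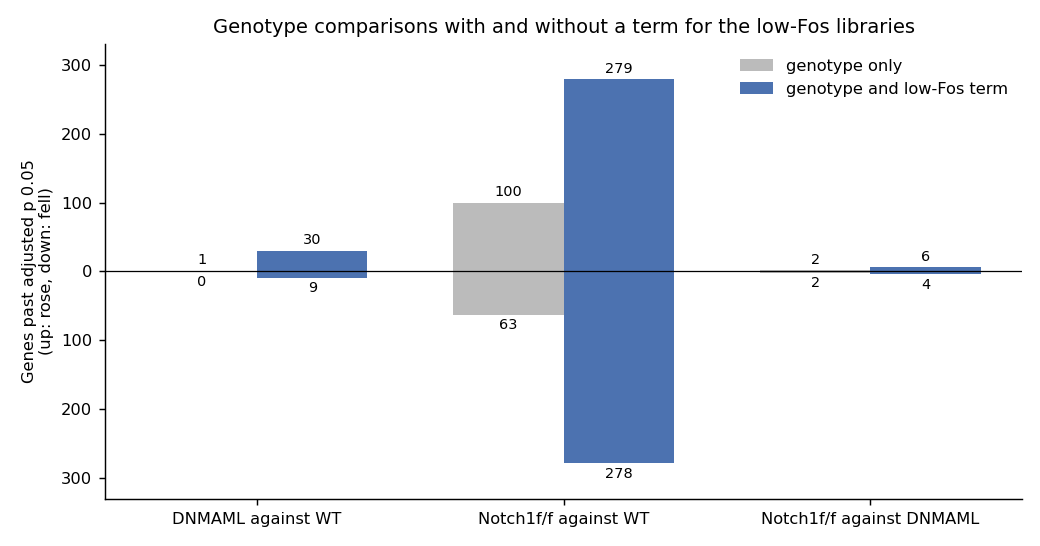
Number of genes that rose (upward bars) or fell (downward bars) in each genotype comparison at a Benjamini-Hochberg adjusted p under 0.05 in edgeR, with genotype as the only term (grey) and with an added low-Fos term (blue). Notch1f/f against WT has 279 and 278 genes with the term and 100 and 63 without it.

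Between DNMAML and WT, genes of mitosis rose, and Vwf and Esm1 were among the genes that fell. With the low-Fos term 30 genes rose (0.154% of 19486) and 9 fell (0.0462%), whereas the fit with genotype only placed 1 (0.00513%) and 0 (0%). At an unadjusted p under 0.05 there were 1582 genes with the term and 1164 without. Over the omission of single libraries the 30 became 0, 3 and 1 without WT replicates 1, 2 and 3, and 2 and 8 without DNMAML replicates 1 and 2. It became 108 and 86 without Notch1f/f replicates 1 and 2, so the count rests on each of these libraries. The 9 that fell became 0 when the first or the second library of WT or of DNMAML was left out, 1 without WT replicate 3, and 18, 49 and 15 without Notch1f/f replicates 1, 2 and 3. With the replicate number as a block over all 9 libraries, Notch1f/f included, 131 rose and 51 fell. No label gives such a pairing, and replicate 2 is the low-Fos library in both WT and DNMAML. With the low-Fos term removed, deviations of WT and DNMAML libraries of the same number correlated at 0.186, -0.413 and -0.00947. Removing the term makes the deviations of the 3 low-Fos libraries cancel out, which pulls their pairs below 0. The -0.413 for replicate 2 therefore says nothing about pairing. With sex added to the terms 98 rose and 19 fell.

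Of 42 cell cycle genes 9 rose in DNMAML with the term (Aspm, Tpx2, Bub1, Ccna2, Kif23, Anln, Ccnb1, Rrm2 and Racgap1), against 1 without it. Their list summed to 904, 988 and 812 CPM in DNMAML and 359, 345 and 370 in WT, with no overlap. Ccnb1, the cyclin of mitotic entry, was at 4.01, 4.59 and 4.42 CPM in DNMAML and 0, 0.13 and 0.10 in WT. It rose by 5.84 on the log2 scale (SE 0.93, edgeR, Benjamini-Hochberg adjusted p = 0.0323 with the term and 0.094 without). Ckap2, a spindle protein gene, went from 0.48 ± 0.47 to 12.6 ± 3.73 CPM (SD, n = 3; log2 change 4.95, SE 0.60, edgeR adjusted p = 0.0238 with the term and 0.169 without). Leukocyte genes summed to 332, 320 and 109 CPM in DNMAML and 185, 116 and 146 in WT, and their part in these rises was not tested.

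Vwf, the clotting factor stored in endothelial granules, was at 881, 668 and 1044 CPM in DNMAML and 1550, 1844 and 1883 in WT. It fell by 1.05 on the log2 scale (SE 0.17, edgeR, Benjamini-Hochberg adjusted p = 0.0323), against an adjusted p = 0.146 with genotype only. Esm1, a tip cell gene, fell from 27.8 ± 6.39 to 10.5 ± 2.75 CPM (SD, n = 3; log2 change -1.39, SE 0.24, edgeR adjusted p = 0.042 with the term and 0.159 without). In the same list of 21 VEGF, apelin and tip cell genes, Apln, a peptide ligand of tip cells, rose (log2 change 0.87, SE 0.11, edgeR adjusted p = 0.0165 with the term and 0.175 without). Of the early response lists, Spry4, an inhibitor of receptor kinase signalling, was the only gene that passed, and it rose. The log2 change itself hardly depended on the term. Its median absolute shift over all genes was 0.02, because the term is balanced, and what the term changed was the residual spread.

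Between Notch1f/f and WT, 279 genes rose (1.43%) and 278 fell (1.43%) with the term, and 100 rose (0.513%) and 63 fell (0.323%) without it. Both fits shared 159 genes. Cell cycle genes rose for 18 of 42 with the term and for 13 without. Their sums in Notch1f/f were 408, 1082 and 1181 CPM, the first being the low-Fos library, and each lay above the WT range. In both fits 4 genes of the Notch list fell, and with the term these were Notch2, Notch3, Heyl and Efnb2. Notch1 itself, at 92.2 ± 75.6 CPM in Notch1f/f and 829 ± 73.3 in WT (SD, n = 3), had a log2 change of -3.17 (SE 0.69) and missed the threshold in both fits (edgeR, Benjamini-Hochberg adjusted p = 0.0892 with the term and 0.0634 without). With the term 4 genes of the BMP list fell (Id1, Id2, Eng and Smad6) and 0 without it, while Bmp2, a ligand, rose in both fits. Mural genes fell for 6 of 13 with the term and 5 without. Notch3, a receptor of mural cells, is in both lists.

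Ccnb1 rose again in Notch1f/f, at 1.16, 5.93 and 11.2 CPM against 0 to 0.13 in WT (log2 change 6.08, SE 0.94, edgeR, Benjamini-Hochberg adjusted p = 0.00929). Its lowest value was that of the low-Fos library. E2f1, a transcription factor of S phase entry, was at 1.25, 13.7 and 4.62 CPM against 0.26, 0 and 0 in WT (log2 change 5.98, SE 1.19, edgeR adjusted p = 0.0369 with the term and 0.0506 without). Olfm2 fell from 7.36 ± 3.12 to 0.34 ± 0.30 CPM (SD, n = 3; log2 change -4.44, SE 0.97, edgeR adjusted p = 0.0406 with the term and 0.0602 without). Bpifa1, a secreted protein of airway epithelium, was listed at 0 in all 3 Notch1f/f libraries and at 0.62, 0.13 and 4.38 CPM in WT (edgeR adjusted p = 0.0346 with the term and 0.242 without). Its level in WT thus followed the epithelial sums, lowest in the low-Fos library.

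Some epithelial and early response genes passed between Notch1f/f and WT in the fit with the term and not in the other. The alveolar genes Hopx, Akap5, Lamp3 and Ager fell with the term and none did without it. The early genes Ier2, Irf1 and Spry2 fell, and Trib1 and Spry4 rose, with the term, again 0 of them without it. The counts rested on single libraries: without WT replicates 1, 2 and 3 the number that rose was 30, 40 and 101, and the number that fell 33, 24 and 169. Without DNMAML replicate 3, 195 rose and 165 fell, and without Notch1f/f replicates 1 and 2, 469 and 128 rose and 277 and 149 fell.

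Between Notch1f/f and DNMAML, 6 genes rose (0.0308%) and 4 fell (0.0205%) with the term, and 2 rose (0.0103%) and 2 fell (0.0103%) without it. The 4 genes without it were also among the 10 with it. None of the 82 early response genes passed in this comparison. With sex added to the terms 3 rose and 4 fell, and Esm1 and Sema3b no longer passed (edgeR adjusted p = 0.0873 and 0.0691). Esm1 was at 34.5, 36.5 and 20.6 CPM in Notch1f/f and 7.38, 12.4 and 11.8 in DNMAML. It rose by 1.54 on the log2 scale (SE 0.24, edgeR, Benjamini-Hochberg adjusted p = 0.0485), and missed the threshold with genotype only (adjusted p = 0.238). Sema3b, a guidance factor gene, was at 42.8, 46.0 and 50.1 against 18.5, 17.9 and 19.0 CPM (log2 change 1.32, SE 0.19, edgeR adjusted p = 0.0331 with the term and 0.166 without). mt-Nd3, at 54.2, 79.8 and 71.0 against 3.21, 1.30 and 4.46 CPM, rose in both fits (edgeR adjusted p = 2.56e-06 with the term). In WT it was at 1.72, 1.02 and 2.50 CPM. It was the only 1 of 13 mitochondrially encoded genes that passed here, and their median log2 change was 0.13. Why mt-Nd3 alone differed was not tested. The counts that rose and fell became 54 and 72 without DNMAML replicate 2, 9 and 12 without WT replicate 2, 10 and 21 without Notch1f/f replicate 3, 2 and 2 without WT or Notch1f/f replicate 1, and 1 and 2 without DNMAML replicate 1. Without DNMAML replicate 3 they became 1 and 3.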

How the data were processed

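The deposited table held whole-number read counts per gene for 56748 Ensembl genes, made by the authors with featureCounts 2.0.1 on GRCm39 and Ensembl release 107, with no strand, pair or multimapping option, per the file headers. Alignment was by STAR 2.7 to mm10 in the submitters' processing notes, which differs from the header's build. Libraries were made with a strand-specific total RNA kit after removal of rRNA, as a single batch, per the labels' protocols. Symbols were matched for 52073 genes.

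Libraries below 700 CPM of Fos were taken as low-Fos. The libraries, their members and the 46 gene lists were chosen with earlier results of these data known. Counts were scaled by TMM and genes kept by filterByExpr with genotype as group (19486 genes). Log2 CPM used a prior count of 2. Genotype comparisons used edgeR 4.0.16 (R 4.3.3) quasi-likelihood tests on counts with genotype and a low-Fos term, and Benjamini-Hochberg adjusted p under 0.05 over all genes. Scripts were tested on simulated data. Alternatives were DESeq2 1.42.0, other scalings, no filter, a replicate block, each library left out and, added after seeing the data, a term for sex read from Ddx3y.

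Genes named by rule were all AP-1 subunits, of each other list up to 4 of the highest level and up to 4 of the largest counted difference, the 15 largest differences each way at a mean of at least 1 CPM, and the first 5 each way per genotype comparison. Other list members, and the remaining genes of at least 100 CPM, were named after their values were seen, and some items are not reported here.

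The replicate number was checked as a pairing from the correlation of deviations from genotype means over 15690 genes. For numbers 1, 2 and 3 it was 0.351, 0.412 and 0.248 between WT and DNMAML, a hint of pairing that no label gives. With the low-Fos term removed these were 0.186, -0.413 and -0.00947. Number 2 is the low-Fos library in both WT and DNMAML. Removing the term makes the deviations of the 3 low-Fos libraries cancel out, so their pairs are pulled to negative values. Their pairs of unlike number gave -0.472 and -0.607, and the -0.413 says nothing about pairing. Before the term was removed, WT and Notch1f/f gave -0.172, -0.0334 and 0.241, and DNMAML and Notch1f/f -0.143, 0.134 and 0.281. The replicate block was fitted over all 9 libraries, so it treated Notch1f/f as paired too.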

Additional observations from a re-analysis of the deposited data

Results flagged for a closer look

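Sex-linked genes set aside, in 5 of 240 genes examined, all with a mean of at least 1 CPM, the low-Fos library lay on opposite sides of its genotype's other libraries in different genotypes, by at least 1 on the log2 scale each way. These differences were not tested, as each genotype has a single low-Fos library, and 41 of the 240 had opposite order at any size. Log2 differences of the low-Fos library are given in the order WT, DNMAML and Notch1f/f. The neutrophil genes S100a9 and S100a8 gave -4.365, 2.741 and 0.8044, and -1.665, 3.477 and -0.4611. S100a9 was at 50.4 CPM in DNMAML replicate 2 and at 0 in WT replicate 2. Ppbp, a chemokine of platelets, gave -1.505, -2.464 and 1.969, with its highest level (423 CPM) in DNMAML replicate 1. The mesothelial gene Upk3b gave -1.674, 1.368 and -0.09354, and the cardiac gene Myh6 1.482, -1.174 and 0.7633. Neither Upk3b nor Myh6 exceeded 7.435 CPM in a library.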

How the results depend on the processing

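Leaving out a library could hardly reverse a gene counted as lower or higher, since its low-Fos library lay beyond both others in each genotype. Counts of genes have no direction to reverse. An absence of reversals therefore says little about either. Of 3633 values of single genes under other settings, 3373 counted as unchanged, 103 moved by more than the spread and 0 reversed. A low-Fos difference counted as unchanged when it moved by less than its SD over the genotypes. A genotype change counted as unchanged when it still passed. Leaving out a low-Fos library drops its genotype, and the mean of the others could hardly move that far. All 245 low-Fos differences counted as unchanged in each such omission, which therefore says little. The other 157 no longer had an adjusted p under 0.05, and all of these belonged to the genotype comparisons. Of 28 such values, 23 no longer passed without WT replicate 1 and 19 without the low-Fos term. The cause of the changes below was not tested unless stated. With a difference of at least 0.6, 1028 genes were lower in the low-Fos libraries. By edgeR the low-Fos libraries had 312 higher and 442 lower genes, by DESeq2 747 and 1030, without the low-count filter 712 and 1027, and with the replicate block 182 higher. Genes that rose and fell, for DNMAML against WT, Notch1f/f against WT and Notch1f/f against DNMAML in turn, numbered 239 and 98, 765 and 807, and 111 and 237 by DESeq2. Without the low-count filter they numbered 342 and 159, 863 and 833, and 193 and 425. The replicate block, fitted over all 9 libraries, gave 131 and 51, 562 and 701, and 57 and 135. With the sex of the library as a further term, added after seeing the data, they numbered 98 and 19, 374 and 345, and 3 and 4, and the low-Fos term had 162 higher and 335 lower genes. Without the low-Fos term there were 1 and 0, 100 and 63, and 2 and 2. In the 6 other libraries alone there were 39 and 1, 231 and 117, and 34 and 17. Leaving out each library in turn gave 0 to 108 and 0 to 49, 30 to 469 and 24 to 416, and 1 to 54 and 2 to 72. The low-Fos term then had 24 to 588 higher and 113 to 764 lower genes, and the rule of order and size 716 to 1306 lower and 1049 to 1654 higher. Lists gave 29 to 36 lower early genes (median -0.97 to -0.85), 14 to 18 epithelial (-2.75 to -2.26), 0 to 3 ribosomal protein (-0.85 to -0.34) and 0 to 2 mitochondrial (-0.83 to -0.64). These list omissions were added after seeing the data. Of the higher genes 304 to 461 were TEC, 159 to 253 antisense and 51 to 73 sense-intronic. With 3 libraries per genotype and 1 low-Fos library in each, spread rests on few libraries, and genes under 1 CPM rest on few counts.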
